A study of Mus musculus with 8 samples.

Results

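The genes described here are 39 genes of the cell division cycle measured in hair matrix keratinocytes, the epithelial cells at the base of the growing hair follicle that divide and give rise to the hair shaft and inner root sheath. They were chosen by name: every row of both deposited expression tables whose gene symbol is on the list, 16 genes of DNA replication and S phase and 23 genes of G2 and mitosis. All 39 were found, among 29647 genes with a value in the untreated table and 29246 in the table of treated mice. Each table holds 4 libraries. The wild type (WT) group and the double knockout (DKO) group, labelled Tet2/Tet3 DKO with Krt14-Cre, had 2 libraries each without treatment and 2 each after 5-aza, an inhibitor of DNA methyltransferases. Tet2 and Tet3 encode dioxygenases that oxidise 5-methylcytosine, and Krt14-Cre is active in basal keratinocytes and their descendants, so that a deletion driven by it leaves the genes intact in other skin cells. Treated mice received 50 µg of 5-aza under the skin at postnatal day 2.5. Skin was harvested at day 4.5 in every group, and matrix keratinocytes were isolated by cell sorting, per the labels. Strain and sex of the mice, and whether the libraries came from separate animals, are not given in the sources used here, so the p-values below measure only the spread between these libraries.

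Dividing cells copy their DNA once in S phase and separate the copies in mitosis. The MCM helicase is loaded at origins by Cdc6 and Cdt1, is activated by cyclin E and other kinase complexes together with the GINS complex, and replicates DNA with the clamp Pcna and with nucleotides supplied by ribonucleotide reductase and thymidylate synthase. Cyclins A and B with Cdk1, the Polo and Aurora kinases, the spindle and kinetochore proteins and the anaphase-promoting complex then carry the cell through mitosis. Most of these genes are transcribed in waves: E2F factors act on replication genes near the start of S phase, and a complex that binds a promoter element called CHR, with NF-Y bound at nearby CCAAT boxes, acts on G2 and mitosis genes. Hair matrix cells are among the fastest dividing cells of the body and stop dividing as they move up to form the shaft and sheath.

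The promoter letters of the members follow this division. RefSeq promoter windows on GRCm38.p6, each from 250 bases before a transcript's start to 50 after it, matched 32 of the 39 members and gave 34 windows, 14 of S phase and 20 of G2 and mitosis members. The letters searched on both strands were TTTGAA or TTCGAA for the CHR, CCAAT for the CCAAT box, and TTTCCCGC, TTTCGCGC, TTTGCCGC or TTTGGCGC for an E2F site. TTCGAA reads the same on both strands, and E2F matches on opposite strands can overlap each other, as they do in Mcm6. The 150 bases before the start are printed for 7 members, in lower case with matches in capitals, to show windows with each kind of match and one with none. Mki67 (chr7:135716380-135716529, minus strand), Top2a (chr11:99024190-99024339, minus strand) and Kif11 (chr19:37376232-37376381, plus strand) hold CHR and CCAAT matches. Aurka (chr2:172370571-172370720, minus strand) shows 2 CCAAT boxes, and its CHR match begins 33 bases after the start, outside the stretch printed. Birc5 (chr11:117849087-117849236, plus strand) holds none of the 3 motifs in its window. Mcm6 (chr1:128359706-128359855, minus strand) and Mcm3 (chr1:20820313-20820462, minus strand) are S phase members. The stretch printed for Mcm3 shows CCAAT boxes only, and its E2F matches begin 20 and 39 bases after the start, outside that stretch.
Mki67: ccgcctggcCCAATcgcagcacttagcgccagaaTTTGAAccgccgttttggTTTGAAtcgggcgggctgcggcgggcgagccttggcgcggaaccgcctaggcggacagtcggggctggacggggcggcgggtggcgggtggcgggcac
Top2a: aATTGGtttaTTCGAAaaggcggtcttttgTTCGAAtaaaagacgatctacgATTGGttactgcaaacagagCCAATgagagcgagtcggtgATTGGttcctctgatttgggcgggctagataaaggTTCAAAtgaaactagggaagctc
Kif11: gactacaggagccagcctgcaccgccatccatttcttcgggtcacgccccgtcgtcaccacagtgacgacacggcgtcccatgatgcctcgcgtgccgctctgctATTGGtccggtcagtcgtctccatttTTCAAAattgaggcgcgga
Aurka: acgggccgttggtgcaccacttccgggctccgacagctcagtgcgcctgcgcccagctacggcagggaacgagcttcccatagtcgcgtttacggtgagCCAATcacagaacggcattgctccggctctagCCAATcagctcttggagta
Birc5: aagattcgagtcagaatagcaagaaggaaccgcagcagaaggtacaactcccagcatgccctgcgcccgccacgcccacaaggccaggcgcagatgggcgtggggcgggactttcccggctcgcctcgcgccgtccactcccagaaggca
Mcm6: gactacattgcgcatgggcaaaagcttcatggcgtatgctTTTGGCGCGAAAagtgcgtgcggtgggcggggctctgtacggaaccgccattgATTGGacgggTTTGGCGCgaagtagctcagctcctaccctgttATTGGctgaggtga
Mcm3: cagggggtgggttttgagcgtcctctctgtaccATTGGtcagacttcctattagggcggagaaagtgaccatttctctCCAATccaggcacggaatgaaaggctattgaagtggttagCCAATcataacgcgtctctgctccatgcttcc

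CHR letters stood in 16 of the 20 windows of G2 and mitosis members (80.0%), in 2 of the 14 of S phase members (14.3%) and in 19.2% of all 32851 windows of the same length. All 16 of those G2 and mitosis windows also held a CCAAT box, a pair found in 7.52% of all windows. E2F letters had the opposite distribution: they were in 6 of 14 S phase windows (42.9%), 1 of 20 G2 and mitosis windows (5.0%) and 2.26% of all windows. CCAAT alone was in 90.0% of G2 and mitosis windows, 64.3% of S phase windows and 37.4% of all windows. Genes outside the membership showed the same split. A list of 53 other G2 and mitosis genes gave 45 windows, of which 73.3% held CHR letters and 11.1% E2F letters, and a list of 40 other replication genes gave 42 windows, of which 19.0% and 23.8% did. A match is a description of letters, and the binding of a factor was not measured here. The bar chart of motif shares gives these values side by side.

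**Figure D1:**
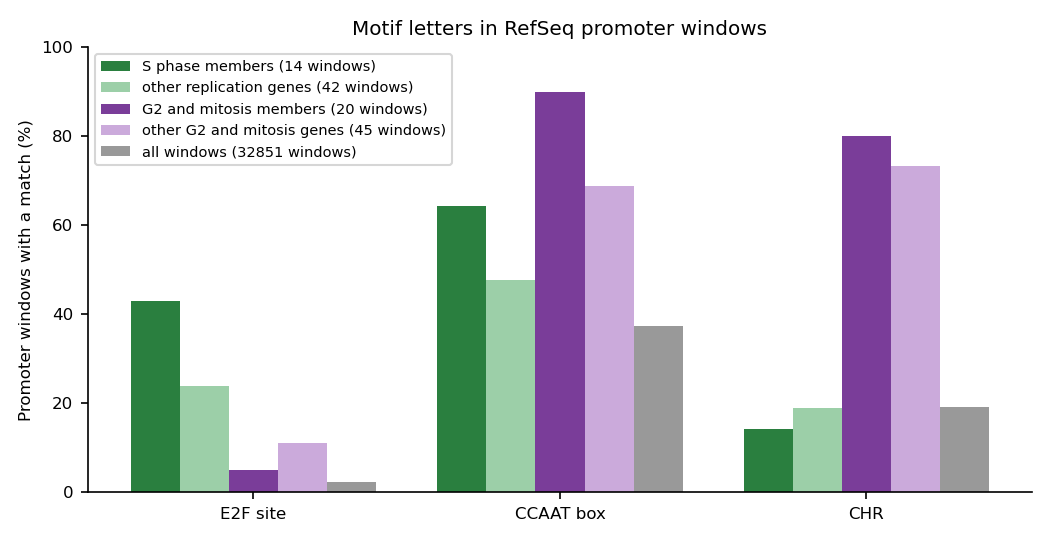
Share of RefSeq promoter windows (%, vertical axis from 0) that hold E2F, CCAAT or CHR letters on either strand, for members, for other genes of the same stages and for all windows. The CHR bars of G2 and mitosis genes reach 80.0% and 73.3%, against 19.2% of all windows.

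The detection of matrix markers and the depth were read first. Of 9 markers of hair matrix keratinocytes, 8 were detected in every library, among them Lef1, Msx2 and Hoxc13, and the ninth, Krt85, was not analysed here. Detection does not identify the cells, since all 7 fibroblast and all 9 dermal papilla markers were also detected in every library. In untreated WT the fibroblast markers summed to 469 to 1264 FPKM and the matrix markers to 141 to 196 FPKM. Library totals recovered from the values were 19528602 to 22837436 counted reads in the untreated table and 39493929 to 58353167 in the other. The members took 80991 to 114564 reads per untreated library and 161367 to 194910 per 5-aza library, 0.685% to 0.811% and 0.829% to 1.05% of the reads in listed genes. The member with the fewest reads in a library had 205. Tet3 in DKO was 0.614 of WT without treatment and 0.573 after 5-aza, and Tet2 was 0.809 and 0.826. These are whole-gene values, which do not isolate the exons deleted. The exons of 11 members overlap an annotated gene, 10 of them on the opposite strand (Cdc20 with Elovl1 and Nusap1 with Oip5, for example), and the strand setting of the authors' counting is not given in the sources used here, so these values may hold reads of the neighbour. Mcm7 is also the host gene of Mir25 and Mir93.

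Values within a gene are given in FPKM, reads scaled for gene length and library total, as deposited. Between genes they are compared per kilobase of merged exons instead, because the deposited length counts an exon once for every annotated transcript that holds it. For the members the deposited length was 0.643 (Kif11) to 3.65 (Tpx2) times the merged length, with a median of 1.74. On merged exons, Pcna, the replication clamp, was the highest member in untreated WT, at 85.1 and 100 FPKM in its 2 libraries. Rrm2, the regulated subunit of ribonucleotide reductase, followed among S phase genes at 49.9 and 57.4 FPKM, and the helicase subunit Mcm5 was at 43.9 and 51.6 FPKM. The ranges of Rrm2 and Mcm5 overlap, and that of Pcna lies above both. At the low end of the S phase class were the GINS subunit Gins2 (2.76 and 3.34 FPKM), the origin licensing factor Cdc6 (5.01 and 5.73 FPKM) and cyclin E2, Ccne2 (5.22 and 6.69 FPKM), of which Cdc6 and Ccne2 overlap.

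In the G2 and mitosis class on merged exons, the proliferation marker Mki67 was at 53.9 and 69.7 FPKM in untreated WT. Top2a, the topoisomerase that untangles replicated chromosomes, was at 53.9 and 62.4 FPKM, within the range of Mki67. Cdc20, an activator of the anaphase-promoting complex, was at 44.8 and 48.6 FPKM, below both. The lowest of this class were the kinetochore motor Cenpe (6.78 and 7.47 FPKM), the central spindle motor Kif23 (8.07 and 8.91 FPKM) and the kinetochore protein Cenpf (9.86 and 11.0 FPKM), whose ranges do not overlap. The order of the 39 levels was nearly the same in both genotypes: Spearman's rho between WT and DKO means was 0.991 without treatment and 0.996 after 5-aza, a description over genes that share libraries. Without treatment Mki67 ranked 2 in WT and 5 in DKO, and Cdc20 ranked 6 and 3.

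**Figure D2:**
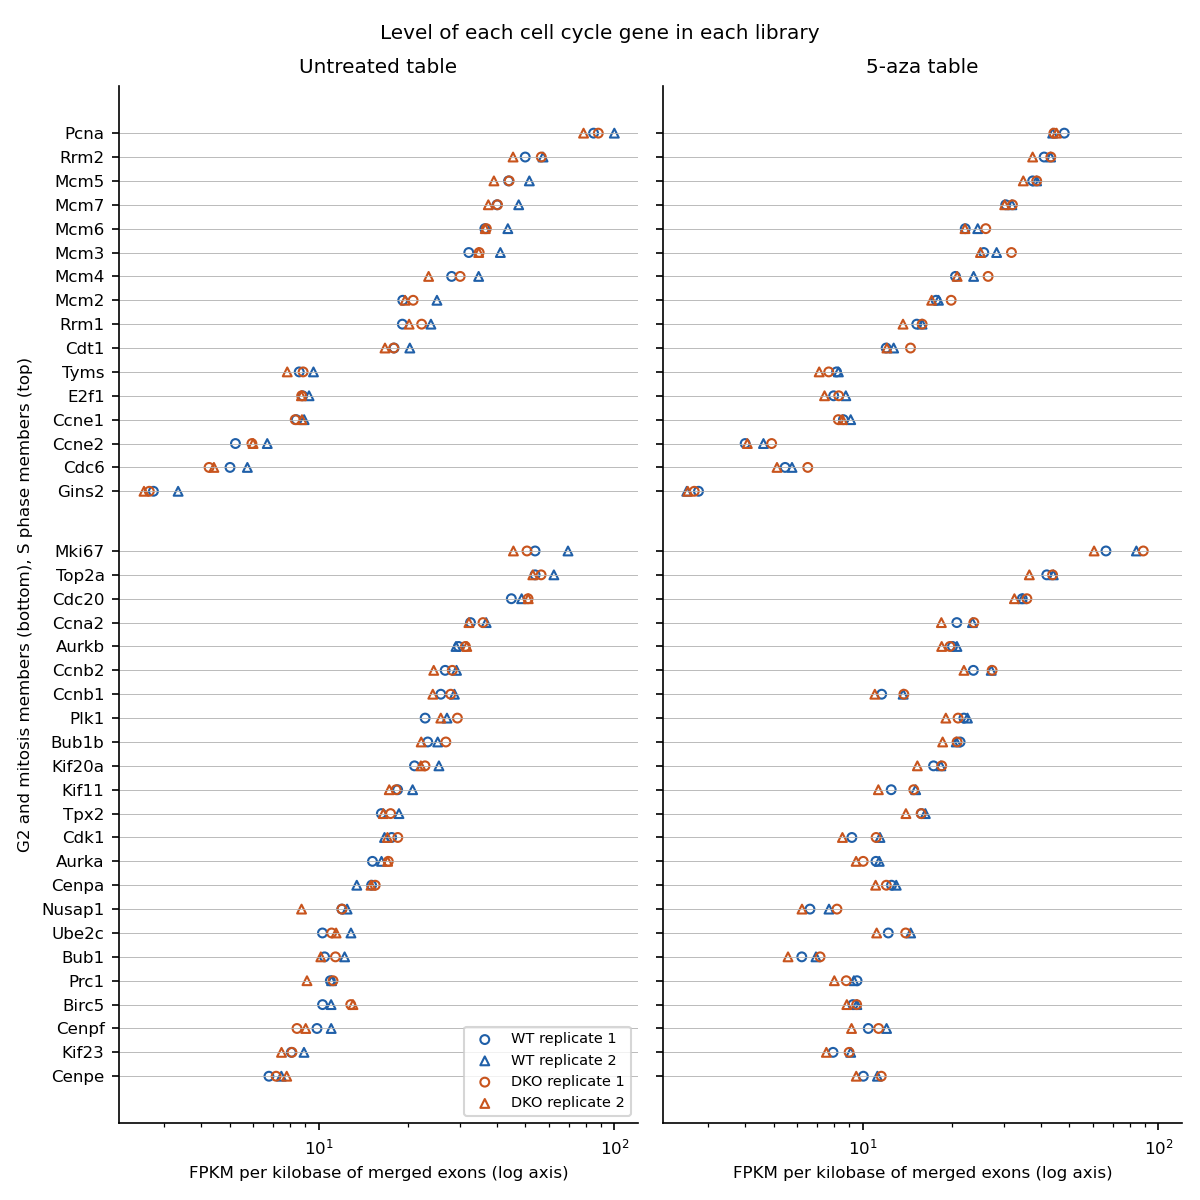
Level of each member (FPKM per kilobase of merged exons, log axis) in each library, with S phase members above and G2 and mitosis members below, each sorted by the untreated WT mean. Circles are replicate 1 and triangles replicate 2, blue for WT and orange for DKO; the genotypes overlap for most members, while Pcna lies near 85.1 to 100 in untreated WT and 43.9 to 48.0 in 5-aza WT.

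The first comparison asks whether these genes differ with genotype in untreated mice. No member passed the adjusted threshold of 0.05 in limma's test of log2(FPKM + 1), a test that called 1 of 17339 genes (0.00577%). The S phase members leaned lower in DKO: 15 of 16 had a negative difference, where 46.2% of all genes did, and their median was -0.11 on the log2 scale against 0.01 for all genes. The G2 and mitosis members did not lean as one, with 14 of 23 negative and a median of -0.03. Without WT replicate 2, 7 of the 23 were negative with a median of 0.04, and without DKO replicate 2, 8 were, with a median of 0.02. The 95% intervals of the 39 members ran from -0.82 to 0.48 at their outermost. In these libraries of sorted cells, fewer dividing cells and less RNA of these genes per cell cannot be told apart.

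Mcm4, a subunit of the replicative helicase, had the most negative difference of the S phase class. It was at 21.8 and 26.9 FPKM in WT and 23.2 and 18.2 FPKM in DKO, and the genotypes overlap (difference -0.22 ± 0.17 SE, adjusted p = 0.702 in limma). Cdc6 was at 2.07 and 2.37 FPKM in WT and 1.76 and 1.83 FPKM in DKO. Both of its DKO libraries lie below both WT libraries (difference -0.20 ± 0.10 SE, adjusted p = 0.504 in limma). Mcm5 was at 17.6 and 20.7 FPKM in WT and 17.7 and 15.7 FPKM in DKO, with a difference of -0.19. Mcm7 was at 16.7 and 19.8 FPKM in WT and 16.8 and 15.6 FPKM in DKO, with a difference of -0.16. For both helicase genes the DKO libraries reach the lower WT library. At the other end, Ccne2 was at 1.71 and 2.18 FPKM in WT and 1.94 and 1.96 FPKM in DKO, and its difference of 0.006 was the one positive value of the class. Rrm1, the large subunit of ribonucleotide reductase, cyclin E1 (Ccne1) and the transcription factor E2f1 were the next nearest to 0, at -0.01, -0.02 and -0.04.

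All DKO values lay below all WT values in 4 S phase members, Cdc6, Cdt1, E2f1 and Gins2, and in no S phase member above them. The first order was found in 19.3% of all genes and the second in 24.1%, so 4 of 16 is near the share of all genes. Cdt1, which loads the helicase with Cdc6, was at 8.29 and 9.38 FPKM in WT and 8.27 and 7.73 FPKM in DKO, so that one library of each genotype nearly coincided. E2f1 was at 5.08 and 5.34 FPKM in WT and 5.04 and 5.03 FPKM in DKO. Gins2 was at 1.33 and 1.61 FPKM in WT and 1.28 and 1.23 FPKM in DKO. In these 4 genes the gap between the nearest WT and DKO libraries was smaller than the gap between the WT libraries.

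In the deposited FPKM, 1 WT library carried most of the lean. WT replicate 2 was the highest of the 4 untreated libraries in 16 of 16 S phase members, where it was the highest for 33.7% of all genes. DKO replicate 2 was the lowest in 9 of the 16, against 24.9% of all genes. Without WT replicate 2, 9 of the 16 S phase differences were negative and the class median was -0.02. Between the libraries numbered 1 the class median was 0.03, and between those numbered 2 it was -0.25, with all 16 members lower in DKO. Scaled to the reads in listed genes, WT replicate 2 was the highest in 13 of 16 (21.4% of all genes). DKO replicate 2 was then the lowest in 13 of 16 (29.6% of all genes). All 16 differences were negative with that scaling, with a median of -0.15, and no library was left out with it. WT replicate 2 had higher summed levels of fibroblast markers than WT replicate 1 (1264 against 469 FPKM) and of erythroid markers (89.7 against 11.4 FPKM). The untreated DKO libraries were at 1139 to 1358 FPKM for fibroblast markers, where WT replicate 1 was the library apart. For erythroid markers they were at 16.2 to 27.5 FPKM. Interfollicular markers were lowest in WT replicate 2. They summed to 299 and 111 FPKM in WT and 164 and 287 FPKM in DKO, in replicate order. Hair matrix markers summed to 141 and 196 FPKM in WT and 200 and 241 FPKM in DKO. The part of these lists in the result was not tested.

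Among G2 and mitosis members without treatment, Mki67 had the most negative difference. It was at 51.1 and 66.0 FPKM in WT and 48.0 and 43.2 FPKM in DKO. Both DKO libraries lie below both WT libraries, and the WT libraries differ from each other by more than the nearest WT and DKO libraries do (difference -0.35 ± 0.18 SE, adjusted p = 0.542 in limma). In the authors' deposited table, whose column names are those DESeq2 writes, its log2 difference was -0.38 with p = 0.0023 and an adjusted p of 0.133. Without WT replicate 2 the difference of Mki67 was -0.16. That deposited table put 1.28% of its genes under an adjusted p of 0.05 and none of the 39 members. Cenpf was at 7.81 and 8.73 FPKM in WT and 6.69 and 7.16 FPKM in DKO, a difference of -0.23 ± 0.10 SE without overlap (adjusted p = 0.475 in limma). Nusap1, a protein of spindle microtubules, was at 6.63 and 6.91 FPKM in WT and 6.64 and 4.84 FPKM in DKO, so its difference of -0.22 rests on DKO replicate 2. Kif11, the motor that pushes the spindle poles apart, was at 28.7 and 32.3 FPKM in WT and 28.4 and 26.9 FPKM in DKO, with a difference of -0.14.

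Birc5, or survivin, a subunit of the chromosomal passenger complex, went the other way. It was at 8.20 and 8.76 FPKM in WT and 10.2 and 10.4 FPKM in DKO, with close replicates and no overlap. Its difference of 0.25 ± 0.09 SE had the lowest p of all members, 0.036, which did not survive adjustment over all genes (adjusted p = 0.398 in limma). It was the one member with an unadjusted p under 0.05 higher in DKO, a share to be read beside 6.72% of all genes, and no member was lower at that p, beside 4.73% of all genes. The members lower at that p numbered 3 when scaled to the reads in listed genes, 2 with median-ratio scaling and 2 with voom, limma's method for counts, on whole reads, with 1 higher in each. Plk1, the Polo kinase, was at 14.4 and 17.1 FPKM in WT and 18.6 and 16.3 FPKM in DKO, with overlap and a difference of 0.14. Cdc20 was at 27.3 and 29.6 FPKM in WT and 31.1 and 31.1 FPKM in DKO (difference 0.13). Aurka, the spindle pole kinase, was at 5.57 and 5.97 FPKM in WT and 6.30 and 6.26 FPKM in DKO (difference 0.11). Aurkb, the kinase partner of Birc5, was at 11.5 and 11.3 FPKM in WT and 12.2 and 12.3 FPKM in DKO. Birc5, Cdc20, Aurka and Aurkb were the 4 of 23 G2 and mitosis members with both DKO libraries above both WT libraries. Mki67, Cenpf and Kif11 were the 3 with both below. Of all genes, 24.1% had the first order and 19.3% the second, so neither count exceeds the share of all genes.

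**Figure D3:**
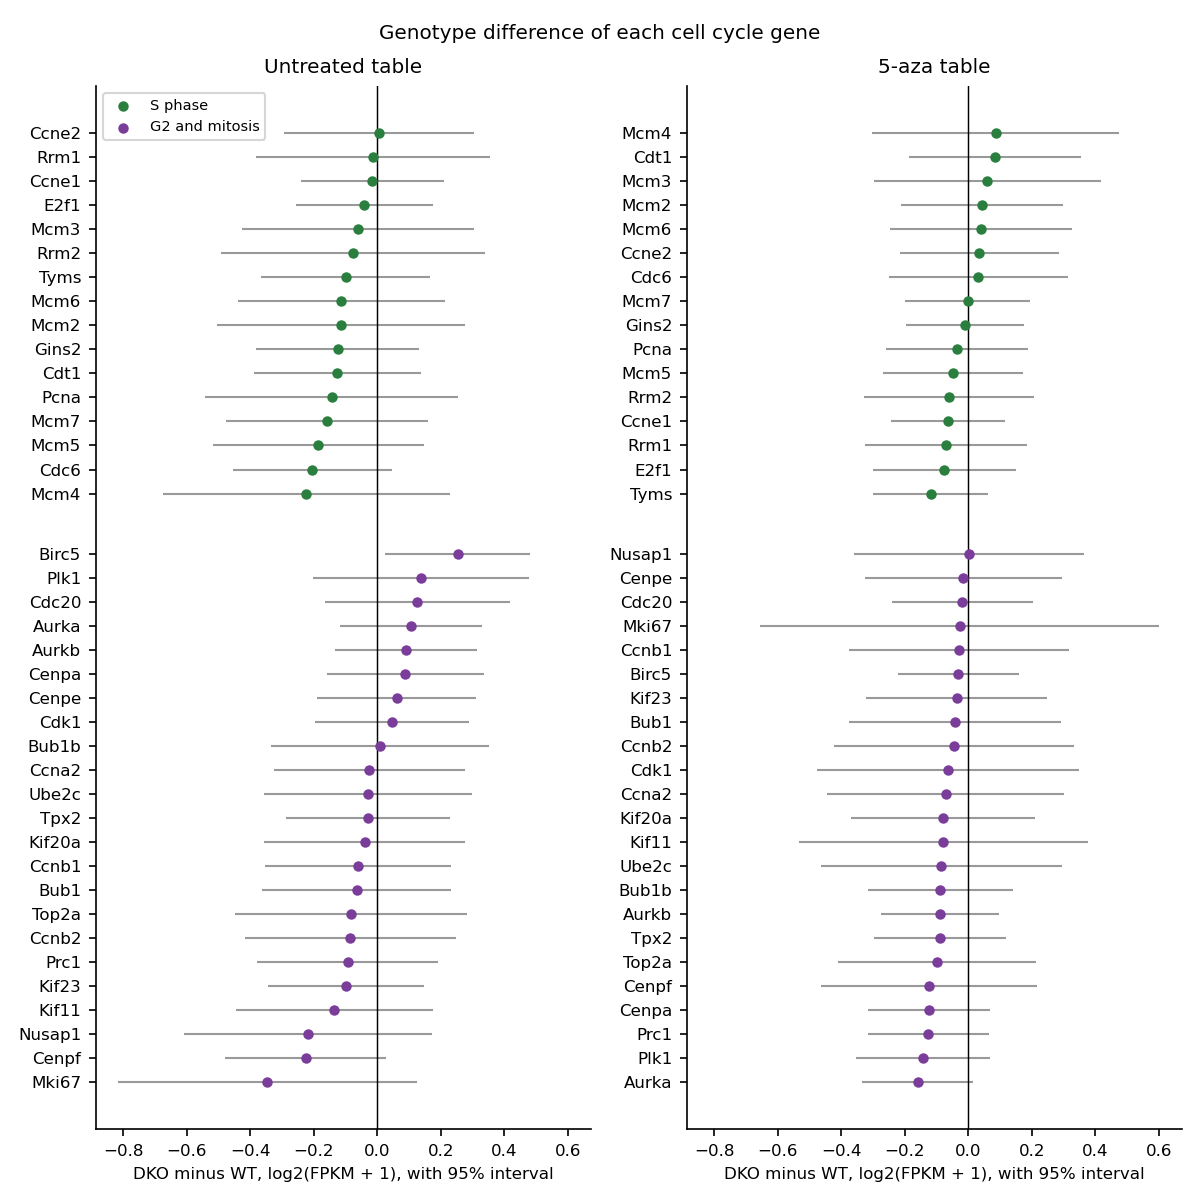
Difference DKO minus WT of each member in log2(FPKM + 1), points with 95% intervals from limma, for untreated (left) and 5-aza (right) libraries, sorted within each class. All untreated intervals but that of Birc5 include 0, and the 5-aza points of G2 and mitosis members lie at or below 0 with the exception of Nusap1 at 0.002.

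The second comparison asks the same of mice that had received 5-aza. Again no member passed in limma, which called 0 of 16856 genes (0.0%). At an unadjusted p under 0.05 limma had 1120 genes higher (6.64%) and 387 lower (2.3%) and no member, and the authors' deposited table called 0.708% of its genes and no member. The class that leaned was now G2 and mitosis: 22 of its 23 members had a negative difference, where 37.2% of all genes did, with a median of -0.08 against 0.03 for all genes. The balance over all genes depends on the scaling: scaled to the reads in listed genes, 741 genes were higher and 707 lower at that p, and with median-ratio scaling 816 and 587, with all-gene medians of -0.01 and -0.002. The S phase members were spread around 0, with 9 of 16 negative and a median of -0.006. Without DKO replicate 1 all 16 were negative, and without DKO replicate 2 only 4 were. The outermost 95% interval bounds were -0.66 and 0.60, both of Mki67.

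Aurka was at 4.06 and 4.16 FPKM in WT and 3.67 and 3.48 FPKM in DKO after 5-aza, without overlap (difference -0.16 ± 0.07 SE, adjusted p = 0.587 in limma). Plk1 was at 13.9 and 14.2 FPKM in WT and 13.2 and 12.0 FPKM in DKO, a difference of -0.14. Prc1, which bundles the central spindle, was at 3.01 and 2.94 FPKM in WT and 2.77 and 2.52 FPKM in DKO, a difference of -0.13. Cenpa, the histone variant of centromeres, was at 6.14 and 6.37 FPKM in WT and 5.90 and 5.43 FPKM in DKO, a difference of -0.12. In these 4 genes, and in Aurkb and Tpx2, an activator of Aurora A, both DKO libraries lay below both WT libraries. Those 6 of 23 stand beside 11.6% of all genes in that order, and no member was above, an order found in 28.0% of all genes. In the authors' deposited table Prc1 and Aurka had log2 differences of -0.24 and -0.27 with p = 0.037 and p = 0.045, both at an adjusted p of 1.00. Nearest to 0 were Nusap1 (0.002), Cenpe (-0.02), Cdc20 (-0.02) and Mki67 (-0.03).

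In Mki67 the spread between replicates exceeded the genotype difference after 5-aza. It was at 63.0 and 79.8 FPKM in 5-aza WT and at 84.2 and 57.4 FPKM in 5-aza DKO, so that the DKO libraries held both the highest and the lowest value. The same arrangement, WT replicate 2 above 1 and DKO replicate 1 above 2, was found in 34 of the 39 members and in 31.2% of all genes. DKO replicate 2 was the lowest of the 4 libraries in all 23 G2 and mitosis members, where it was the lowest for 19.8% of all genes, and in 10 of 16 S phase members. Without DKO replicate 2, 7 of the 23 G2 and mitosis differences were negative and their median was 0.05. Without WT replicate 2, 12 of the 23 were negative with a median of -0.01. The share of reads in mitochondrial genes moved with these libraries: it was 0.300% and 0.517% in WT and 0.640% and 0.276% in DKO, in replicate order. So did the summed melanocyte markers, at 96.9 and 21.9 FPKM in WT and 29.2 and 139 FPKM in DKO, with all 7 markers above 0 in every library, and the 10 markers of the differentiating hair shaft, at 57.2 and 27.0 FPKM in WT and 41.7 and 108 FPKM in DKO. The 7 fibroblast markers were at 144 and 67.8 FPKM in WT and 97.1 and 140 FPKM in DKO, and the 8 genes of dissociation stress at 102 and 66.2 FPKM in WT and 77.8 and 103 FPKM in DKO. WT replicate 1 and DKO replicate 2, the lower library of each genotype in most cell cycle genes, were thus the higher ones in these sums. They were also higher in summed basal and outer root sheath, dermal papilla, interfollicular, immune, endothelial and erythroid markers. Hair matrix markers had the opposite order (196 and 206 FPKM in WT, 243 and 232 FPKM in DKO). Inner root sheath markers had neither (442 and 462 FPKM in WT, 326 and 422 FPKM in DKO). Within the fibroblast list Dcn had the opposite order. The part of these in the result was not tested.

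**Figure D4:**
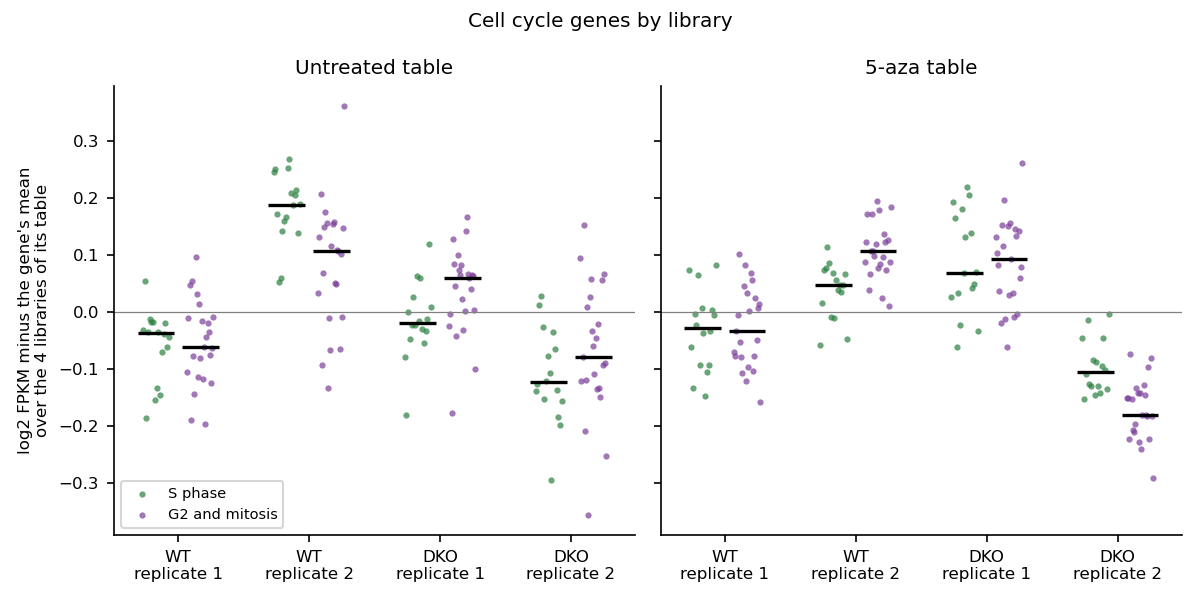
Level of each member in each library, as log2 FPKM minus the gene's mean over the 4 libraries of its table (vertical axis), for S phase (green) and G2 and mitosis members (purple), with black bars at the class medians. Untreated WT replicate 2 stands high (S phase median 0.19) and 5-aza DKO replicate 2 stands low (G2 and mitosis median -0.18).

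Within the S phase class after 5-aza, Tyms, the thymidylate synthase, had the most negative difference. It was at 3.69 and 3.74 FPKM in WT and 3.47 and 3.22 FPKM in DKO (-0.12 ± 0.07 SE, adjusted p = 0.692 in limma). Tyms and Ccne1 were the 2 of 16 S phase members without overlap, both lower in DKO, an order found in 11.6% of all genes. E2f1, Rrm1 and Ccne1 followed at -0.07, -0.07 and -0.06. At the other end Mcm4 was at 15.9 and 18.3 FPKM in WT and 20.5 and 16.1 FPKM in DKO, with overlap and a difference of 0.09. Cdt1 was at 5.53 and 5.86 FPKM in WT and 6.68 and 5.57 FPKM in DKO, a difference of 0.09, and the helicase subunits Mcm3 and Mcm2 were at 0.06 and 0.04. The sign of the small S phase values depends on the scaling: scaled to the reads in listed genes, 14 of 16 were negative with a median of -0.07, and the G2 and mitosis median was -0.16 with 23 of 23 negative. With that scaling 7 of the 39 members had an unadjusted p under 0.05, all lower in DKO, and the lowest adjusted p was 0.472 in limma.

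The third comparison asks whether the genotype difference itself differed between 5-aza and untreated libraries. Of 18505 genes limma called 5 (0.027%), and no member. At an unadjusted p under 0.05 it had 3.05% of genes in the positive and 3.04% in the negative direction, and 2 members in the negative one. These were Birc5 (-0.28 ± 0.10 SE, adjusted p = 0.738 in limma) and Aurka (-0.27 ± 0.09 SE, adjusted p = 0.740 in limma). Both stood above WT in untreated DKO. After 5-aza Aurka stood below, and Birc5, at 7.37 and 7.59 FPKM in WT and 7.58 and 7.03 FPKM in DKO, overlapped. Plk1 (-0.28) and Cenpa (-0.21) were the other two of the 4 most negative members. The largest positive values of the class were those of Mki67 (0.32), Nusap1 (0.22), Cenpf (0.10) and Kif23 (0.06). In the S phase class Mcm4 (0.31), Cdc6 (0.24), Cdt1 (0.21) and Mcm2 (0.16) were the highest and Rrm1 (-0.06), Ccne1 (-0.05), E2f1 (-0.03) and Tyms (-0.02) the lowest. The S phase median was 0.12 with 4 of 16 negative, and the G2 and mitosis median was -0.05 with 15 of 23 negative, where 44.4% of all genes were negative. With a library left out, 1 to 9 of the S phase and 7 to 21 of the G2 and mitosis members were negative. Without untreated WT replicate 2 the S phase median was -0.01, and without 5-aza DKO replicate 2 the G2 and mitosis median was 0.09. The outermost interval bounds of the members were -0.65 and 1.11.

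The ratio of the 2 classes within a library does not depend on how that library was scaled. Summed FPKM of S phase members over that of G2 and mitosis members was 0.665 and 0.699 in untreated WT and 0.664 and 0.644 in untreated DKO. After 5-aza it was 0.576 and 0.533 in WT and 0.550 and 0.607 in DKO. These ratios use deposited lengths. On merged exons they were 0.828 and 0.880 in untreated WT and 0.813 and 0.793 in untreated DKO. After 5-aza the merged ratios were 0.744 and 0.699 in WT and 0.726 and 0.787 in DKO. Without treatment the higher DKO ratio almost met the lower WT ratio, and after 5-aza the genotypes overlapped. All 5-aza ratios lie below all untreated ones on either length. With deposited lengths the separation rests on Mki67. Without this gene the ratios ran from 0.740 to 0.844 in untreated and from 0.704 to 0.776 in 5-aza libraries, and they overlap. The tables also differ in their annotation rows and scaling. Marker sums differ as well. Fibroblast markers were at 469 to 1358 FPKM in untreated and 67.8 to 144 FPKM in 5-aza libraries. Interfollicular markers were at 111 to 299 and 3.52 to 13.4 FPKM. The ranges of hair matrix, inner root sheath and melanocyte markers overlapped between the tables. The sample labels name a SMARTER mRNA kit and the series text names a Zymo ribosomal RNA depletion kit, without tying either to a group. Treatment and table cannot be told apart, and 5-aza against untreated was therefore not tested.

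Side by side, the order of the members was more alike between genotypes than between tables, with Spearman's rho of 0.946 for WT and 0.941 for DKO between untreated and 5-aza. On merged exons Mki67 ranked 2 of 39 in untreated WT and 1 in 5-aza WT, at 53.9 and 69.7 against 66.4 and 84.2 FPKM. Pcna was at 85.1 and 100 FPKM against 48.0 and 43.9 FPKM. The ratio of deposited Mki67 to Pcna FPKM was 1.12 and 1.23 in untreated WT, 1.02 and 1.03 in untreated DKO, 2.45 and 3.40 in 5-aza WT and 3.55 and 2.37 in 5-aza DKO. It serves to compare libraries only: on merged exons Mki67 lay below Pcna in both untreated WT libraries. Ccnb1, the mitotic cyclin B1, ranked 14 in untreated and 23 in 5-aza WT, the checkpoint kinase Bub1 28 and 36, Nusap1 26 and 35, and Cenpe 36 and 27.

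The controllers of cell cycle entry were read from lists fixed with earlier results of these data known. Of 7 inhibitors of cyclin-dependent kinases, 6 were kept by the filter on low values in the untreated table. All 6 had a positive difference, with a median of 0.08, where 9330 of all 17339 genes did, with a median of 0.01. Cdkn1a and Cdkn2b were higher at an unadjusted p under 0.05 in limma, as were 6.72% of all genes. The differences of the others were 0.02 to 0.09. Cdkn1a, or p21, was at 6.06 and 4.61 FPKM in untreated WT and 7.57 and 12.3 FPKM in untreated DKO. Its DKO libraries lie above both WT libraries but differ widely from each other (difference 0.76 ± 0.24 SE, unadjusted p under 0.05, adjusted p = 0.374 in limma). Cdkn2b, or p15, was at 0.631 and 0.949 FPKM in WT and 1.33 and 2.18 FPKM in DKO (0.61 ± 0.19 SE, unadjusted p under 0.05, adjusted p = 0.350 in limma). It had the same order after 5-aza, at 1.41 and 1.32 FPKM in WT and 1.95 and 2.16 FPKM in DKO (0.37 ± 0.07 SE, unadjusted p under 0.05, adjusted p = 0.381 in limma). Cdkn1a after 5-aza was at 6.46 and 6.38 FPKM in WT and 7.01 and 8.11 FPKM in DKO (0.20, adjusted p = 0.607 in limma). The untreated and 5-aza differences of the others were 0.09 and 0.16 for Cdkn1b (p27), 0.02 and 0.10 for Cdkn1c (p57), 0.07 and -0.13 for Cdkn2c (p18) and 0.02 and -0.05 for Cdkn2d (p19). Cdkn2a, which encodes p16 and p19Arf, was at most 0.0882 FPKM in any library and was not tested.

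The D cyclins start the cycle with Cdk4 and Cdk6, and none passed the adjusted threshold in limma. Without treatment both DKO libraries lay below both WT libraries in Ccnd2 and above them in Ccnd3. Those orders were found in 19.3% and 24.1% of all genes. Ccnd1 overlapped. Ccnd2 was the highest, at 131 and 134 FPKM in untreated WT and 127 and 107 FPKM in untreated DKO (-0.18), and at 70.7 and 79.9 FPKM in 5-aza WT and 99.1 and 73.8 FPKM in 5-aza DKO (0.18). Ccnd1 was at 64.0 and 68.5 FPKM in untreated WT and 63.0 and 66.1 FPKM in untreated DKO (-0.04), with a 5-aza difference of 0.01. Ccnd3 was low, at 2.95 and 2.58 FPKM in untreated WT and 3.13 and 3.24 FPKM in untreated DKO (0.15), with a 5-aza difference of 0.16. Myc, a transcription factor that promotes growth and cycle entry, was at 1.75 and 1.94 FPKM in 5-aza WT and 3.04 and 2.61 FPKM in 5-aza DKO (0.43 ± 0.09 SE, unadjusted p under 0.05, adjusted p = 0.393 in limma). In the authors' deposited table Myc had a 5-aza log2 difference of 0.54 and an adjusted p of 0.0546. In untreated libraries Myc was at 0.734 and 1.25 FPKM in WT and 1.51 and 1.48 FPKM in DKO (0.34, adjusted p = 0.474 in limma).

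No gene of the lists of other replication and mitosis genes was called. The counts of negative differences below stand beside 46.2% of all genes without treatment and 37.2% after 5-aza. Of 40 other replication genes, 28 were negative without treatment and 28 after 5-aza, with medians of -0.06 and -0.04. One of them had an unadjusted p under 0.05: Pola1, the catalytic subunit of DNA polymerase alpha, was at 5.27 and 5.66 FPKM in 5-aza WT and 4.80 and 4.47 FPKM in 5-aza DKO (-0.20, adjusted p = 0.555 in limma). Of 53 other G2 and mitosis genes 51 were tested, with 30 negative without treatment (median -0.03) and 45 negative after 5-aza (median -0.08), and none had an unadjusted p under 0.05 in either table. In the interaction, cyclin F (Ccnf) was at -0.28 (unadjusted p under 0.05, adjusted p = 0.808 in limma). Of 18 E2F, pocket protein and DREAM factors 11 were negative without treatment and 7 after 5-aza, of 16 subunits and partners of the anaphase-promoting complex 7 and 6, and of 14 checkpoint genes 10 and 10. No gene of these 3 lists had an unadjusted p under 0.05 in either table.

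Replication-dependent histone genes are expressed in S phase, when new chromatin is built. Without treatment the differences of the 64 tested ran from -2.81 to 0.82. Of these 33 were positive and 31 negative, with a median of 0.03, and 4 were higher and 8 lower at an unadjusted p under 0.05. After 5-aza 58 of 61 were negative, with a median of -0.31, and 16 were lower and 1 higher at that p. Over all genes 46.2% were negative without treatment, with 6.72% higher and 4.73% lower at that p, and 37.2% were negative after 5-aza, with 6.64% higher and 2.3% lower. No histone gene passed the adjusted threshold of limma in either table, while the authors' deposited table called 7 and 3, beside 1.28% and 0.708% of its genes. Their summed level was 2696 and 2790 FPKM in 5-aza WT and 2330 and 2031 FPKM in 5-aza DKO, without overlap, while the S phase members of the same libraries, at 168 and 176 FPKM and at 182 and 161 FPKM, did overlap.

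Marker lists of other cell types were read in the same libraries. Without treatment the summed level of 10 shaft markers was 25.4 to 42.1 FPKM in WT and 244 to 344 FPKM in DKO, that of 9 basal and outer root sheath markers 492 to 589 and 870 to 980 FPKM, and that of 9 dermal papilla markers 237 to 258 and 128 to 135 FPKM, with none of these markers at 0 in a library. The 9 immune markers were at 6.69 to 9.90 FPKM in WT and 19.2 to 24.1 FPKM in DKO, with 9 of 9 differences positive and none at 0 in a library. The inner root sheath list, at 251 to 306 and 325 to 472 FPKM, had members in both directions. Its keratin Krt28 was at 70.4 and 70.7 FPKM in WT and 1.98 and 2.85 FPKM in DKO, and Krt27 at 23.8 and 14.4 FPKM in WT and 57.6 and 86.0 FPKM in DKO. The 8 hair matrix markers summed to 141 to 196 FPKM in WT and 200 to 241 FPKM in DKO, but did not move together. Both DKO libraries lay above both WT libraries in 4 of them and below in 1, Bmp4, and 3 overlapped. Those first 2 orders were found in 24.1% and 19.3% of all genes. Dlx3 had means of 80.9 FPKM in WT and 80.6 FPKM in DKO. After 5-aza the basal and outer root sheath markers were at 359 to 446 FPKM in WT and 647 to 762 FPKM in DKO, and the hair matrix markers at 196 to 206 and 232 to 243 FPKM. Interfollicular differentiation markers were at 3.52 to 4.91 FPKM in 5-aza WT and 7.03 to 13.4 FPKM in 5-aza DKO, with 6 of the 7 detected in every library, and inner root sheath markers at 442 to 462 and 326 to 422 FPKM. The ranges of the genotypes overlapped for endothelial and erythroid markers in both tables, for interfollicular, fibroblast and stress genes without treatment, and for dermal papilla and immune markers after 5-aza. Untreated melanocyte markers were at 33.8 to 35.5 FPKM in WT and 41.4 to 42.7 FPKM in DKO. The part of these lists in the small differences of the cell cycle genes was not tested.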

How the data were processed

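RNA of sorted hair matrix keratinocytes was sequenced in 8 libraries, 2 per group. Tools listed, without role or version, in the submitters' processing notes are Trim Galore, STAR, HTSeq and DESeq2; the listed builds are mm10 and GRCm38. Library columns hold FPKM computed by the authors. The deposited log2 fold change, printed here with its sign turned to DKO over WT, and the deposited p-values are the authors' own. The deposited score column (the test statistic) and the deposited mean signal of normalized counts were not used. FPKM times the deposited length is a whole multiple of 1 step per library (largest deviation 4e-08 of a read, tolerance 0.001), which gave read numbers and totals. The deposited length equals the summed exon lengths over all transcripts in GENCODE vM21 for 97.6% of 29638 matched untreated genes and 97.5% of 29246 in the 5-aza table. Rows that name no gene, 3 and 5, stayed out of library sizes and tests, as did 376 rows of the 5-aza table without a name or FPKM.

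A gene was tested if 2 libraries held 10 or more reads, rescaled to the median library size, and all libraries together 15 or more. Tests were run with limma 3.58.1 (R 4.3.3) on log2(FPKM + 1), with a variance trend, two-sided, adjusted over all genes kept by Benjamini and Hochberg's method with a threshold of 0.05. Differences are on that scale and understate those of low genes. All 39 members were kept. The test was checked on simulated counts. They were drawn without differences in cell mixture between libraries, so the check does not measure error or power in these data. Libraries of the groups share replicate numbers but nothing in the labels pairs them, so no block was used. Each of the members, the lists and the rule for naming genes (4 at each end of a class in a comparison, 3 at each end by level) was chosen with earlier results of these data known. Tables and plots used Python 3.11.15, and the promoter windows are RefSeq's.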

Additional observations from a re-analysis of the deposited data

How the results depend on the processing

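No member passed the adjusted threshold in any setting tried. Of 1170 single member differences under other settings with all libraries kept, 1145 kept their sign; of 624 with a library left out, 494 did. The count of all genes called in the untreated comparison, 1 as reported, was 129 with all 8 libraries in one fit, 37 on merged exons (a setting added after the data were seen), 0 without a filter, 0 without the variance trend, 8 with a pseudocount of 0.1 and 147 with voom on whole reads. After 5-aza it was 0 as reported and 1 with all 8 libraries in one fit. The interaction, 5 as reported (1 positive, 4 negative), gave 1 with a filter of 1 FPKM, 2 without a filter, 2 without the trend, 1 with a pseudocount of 0.1 and 2 (1 in each direction) scaled to reads in listed genes. The causes were not tested.

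With a library left out, the untreated count ran from 0 to 1, the 5-aza count was 0 and the interaction count ran from 0 to 8. The interaction median ran from -0.0149 to 0.235 for S phase and from -0.163 to 0.0865 for G2 and mitosis members. The difference between the S phase and G2 and mitosis medians after 5-aza, 0.0718 as reported, ran from -0.0104 (without DKO replicate 2) to 0.117.

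With a replicate block, the untreated count was 13, the 5-aza count 0 and the interaction count 0, and no member was called. Within the pairs of replicates 1 and 2 the class difference after 5-aza was -0.0329 and 0.116. Deviations of same-numbered libraries correlated at 0.032 across 17339 untreated genes and at -0.589 across 16856 genes after 5-aza. With the numbers crossed after 5-aza, an alternative added after the data were seen, the count was 91 and the interaction count 0, with no member called. Voom was the one model for counts that was run; DESeq2 and edgeR were not run.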
